A study of Homo sapiens with 6 samples.

Results

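The cadherin and protocadherin genes are 107 of the 19111 autosomal protein-coding genes of GENCODE release 44. They were taken by symbol: every gene whose symbol starts with CDH or PCDH, together with FAT1 to FAT4, DCHS1, DCHS2, CELSR1 to CELSR3, DSC1 to DSC3 and DSG1 to DSG4. The rule uses no measured value. There were 5 of them on chromosome 5 below 50 Mb (CDH6, CDH9, CDH10, CDH12 and CDH18), and these are described apart from the rest. A further 53 were the clustered protocadherins PCDHA, PCDHB and PCDHG, and the remaining 49 were spread over the genome.

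The data came from ChIRP-seq, in which biotinylated DNA oligonucleotides antisense to an RNA recover that RNA with the chromatin crosslinked to it. The cells were HCT116, a human colorectal carcinoma line with no other treatment named in the labels, and the RNA was the long non-coding RNA CRLM1. There were 6 libraries in 3 groups of 2 replicates: pull-down with CRLM1 oligonucleotides, pull-down with oligonucleotides against LacZ (a gene of E. coli, the negative control), and Input chromatin that saw no pull-down. The comparison asks where CRLM1 pull-down DNA exceeded each control.

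The 4 peak lists held 9251 autosomal peaks for replicate 1 against Input, 10234 for replicate 1 against LacZ, 16638 for replicate 2 against Input and 361 for replicate 2 against LacZ. Lists of the same replicate share their pull-down library, so agreement between the controls of a replicate is no replication. The lists hold no read counts, and the depth of the libraries is therefore unknown. Each list rests on a single pull-down library and a single control library, so the values below are descriptions with no test and no replicate error other than the comparison of the replicates. Nothing in the labels says that the replicates were separate cultures. All were of the same cell line.

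Cadherins are transmembrane proteins whose extracellular repeats bind calcium and hold neighbouring cells together. Type I cadherins such as E-cadherin build the adherens junctions of epithelia, type II cadherins are best known from neurons, vessels and mesenchyme, and desmosomal cadherins anchor keratin filaments. Protocadherins act mainly in the nervous system, and the FAT, dachsous and flamingo (CELSR) proteins set growth and planar polarity of tissues.

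Throughout, a gene held a peak if at least 1 bp of a peak lay in its body or in the 5 kb before its start. Peaks against Input in replicate 1 fell in 39 of the 107 genes (36.4%), where 13.6% of all autosomal protein-coding genes had one. Peaks against LacZ in replicate 1 fell in 21 (19.6%), where 21.0% of all genes had one. In replicate 2 the numbers were 47 against Input (43.9%), where 23.0% of all genes had one, and 4 against LacZ (3.74%), where 1.07% of all genes had one.

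Cadherin genes are long, and long genes hold more peaks. The counts were therefore set beside the sum, over members, of the share of other genes of like length that held a peak (20 length classes). Genes of like length would have given 28.2, 37.1, 42.4 and 2.02 genes in the same order, which puts the members at 1.38, 0.567, 1.11 and 1.99 times that number. A peak in at least 1 list fell in 53 members, where 36.1% of all genes had one and genes of like length would have given 59.9. These 53 had a median length of 143 kb, against 26.3 kb for the 54 without and 27.9 kb for all genes. The 5 genes on chromosome 5 below 50 Mb and the clustered protocadherins are given separately below. Over the 49 remaining members the counts were 12, 16, 20 and 1, beside 13.2, 17.2, 19.6 and 1.03 for genes of like length. For these 49 the ratio therefore lay between 0.906 and 1.02 in every list.

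**Figure D1:**
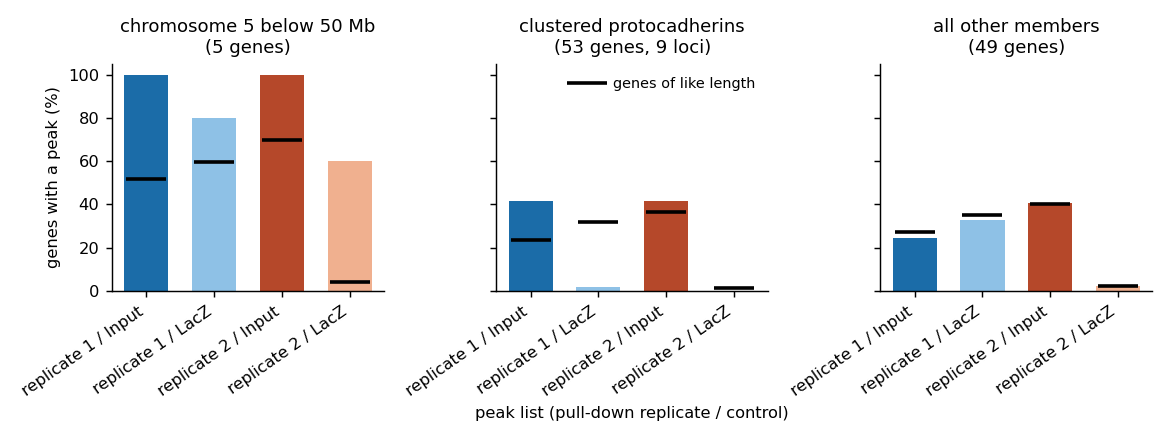
Percentage of genes with a peak (bars, y axis) in each of the 4 lists (x axis, pull-down replicate and control) for the 5 members on chromosome 5 below 50 Mb, the 53 clustered protocadherins and the 49 other members, with the share for genes of like length as black lines. The other members lie close to the lines in all 4 lists, while the chromosome 5 members lie above them in every list.

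The genes on chromosome 5 below 50 Mb, all type II cadherins, held most of the peaks. They held a peak in 5, 4, 5 and 3 of 5 cases in the same order of lists, beside 2.58, 2.97, 3.49 and 0.199 for genes of like length. CDH18 and CDH12 (1105 and 1103 kb) fell in the top length class, whose other genes had a median of 406 kb. Of the 309 autosomal protein-coding genes of at least 500 kb, 274, 276, 300 and 32 held a peak. The merged sequence of the 5 genes, 2.77 Mb, held 37, 32, 80 and 3 peaks, which is 13.4, 11.6, 28.9 and 1.08 peaks per Mb. The rest of chromosome 5 below 50 Mb held 8.65, 8.31, 19.1 and 0.489 peaks per Mb, and all autosomes held 3.36, 3.71, 6.04 and 0.131. This whole stretch was therefore dense, and its 150 other protein-coding genes also held peaks more often (34%, 43.3%, 55.3% and 6%) than genes of like length (19.1%, 27%, 30.5% and 1.46%). Density in members elsewhere was 2.67, 2.48, 6.39 and 0.0954 peaks per Mb, beside 3.26, 3.63, 5.78 and 0.124 in the rest of the autosomes.

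CDH18 (ENSG00000145526, chr5:19471296-20575873, minus strand, 1105 kb), a type II cadherin known from the brain, held 21, 19, 30 and 1 peaks in the 4 lists. These formed 57 distinct sites, more than in any other member. Among the 309 autosomal protein-coding genes of at least 500 kb, CDH18 had the highest number of peaks per Mb in both replicate 1 lists (18.9 and 17.1, where the medians were 3.53 and 3.4). In replicate 2 against Input it ranked 2 with 27 peaks per Mb (median 6.62), behind CDH12. Of the 57 sites, 43 were in 1 list and 14 were in 2 lists, and in no case did a site of replicate 1 overlap a site of replicate 2. The nearest pair of peaks from different replicates lay 364 bp apart. Counted from the start of the gene, 11, 7 and 18 peaks of the first 3 lists lay before its middle and 10, 12 and 12 after it.

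CDH12 (ENSG00000154162, chr5:21750673-22853344, minus strand, 1103 kb), known as brain cadherin, held 10, 7, 30 and 1 peaks at 42 distinct sites. It had the highest number of peaks per Mb of the 309 long genes in replicate 2 against Input (27.1), and ranked 26 and 37 in the replicate 1 lists (9.03 and 6.32 peaks per Mb). The replicates therefore placed the same gene differently, while CDH18 stood near the top in both.

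**Figure D2:**
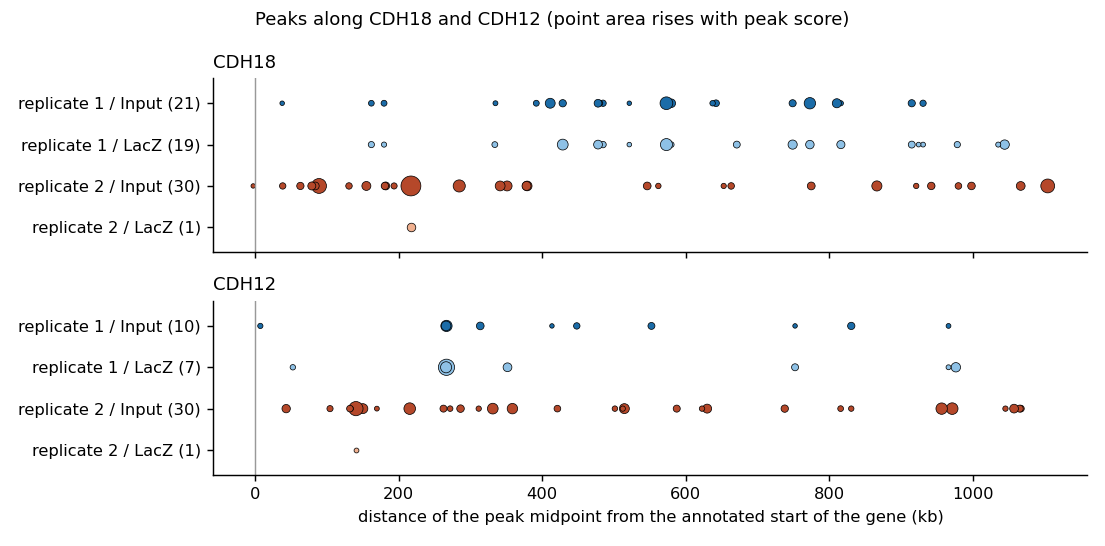
Distance in kb of each peak midpoint from the annotated start of CDH18 (top) and CDH12 (bottom), with 1 row for each list, the number of peaks in brackets and a point area that rises with the peak score. Peaks are spread along both genes, and the points of replicate 1 and replicate 2 rarely coincide: they overlapped at 1 site of CDH12 and at none of CDH18.

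CDH9 (chr5:26880597-27121150, 241 kb) held 4, 4, 10 and 1 peaks, and CDH10 (chr5:24487100-24644978, 158 kb) held 1, 2, 8 and 0. Both are type II cadherins of neurons. CDH6 (chr5:31193686-31329146, 135 kb), a cadherin of kidney and neural crest, held 1, 0, 2 and 0, the fewest of the 5. CDH9 was the only member with peaks of both replicates that overlapped its coding sequence by at least 1 bp. A replicate 1 peak called against both controls (chr5:26890409-26890794, scores 52.11 and 59.67) and a replicate 2 peak against Input (chr5:26889640-26890222, score 62.17) lay near its 3′ end, with 187 bp between their facing ends. The CDH9 peak of the replicate 2 list against LacZ was an intronic one at chr5:26923362-26923984, with scores of 56.38 against LacZ and 110.65 against Input.

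For the 24 members of at least 100 kb that are not clustered protocadherins, the gene was compared with the 1 Mb on either side of it. The 29 clustered protocadherins of that length overlap each other and were left out. On chromosome 5 below 50 Mb the genes held 13.4, 11.6, 28.9 and 1.08 peaks per Mb, and their flanks held 10.4, 8.6, 25 and 0.6. The gene was denser than its flanks in 3, 3, 4 and 2 of the 5 cases. CDH18 was denser in each list (18.9 in the gene and 8 in the flanks, 17.1 and 6, 27 and 19.5, 0.901 and 0). CDH6 was below its flanks in each list (7.12 and 15.5, 0 and 9.5, 14.2 and 22.5, 0 and 1). The flanks of neighbouring genes are not independent, since all 5 lie within the same dense stretch. For the 19 long members elsewhere the genes held 2.92, 2.57, 6.19 and 0.117 peaks per Mb, and their flanks 3.26, 3.82, 6.63 and 0.132. CDH7 (140 kb), a type II cadherin on chromosome 18, stood apart among these with 34.5 peaks per Mb against 6 in its flanks in replicate 2 against Input, from 5 peaks. It held 0 peaks in the other 3 lists.

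**Figure D3:**
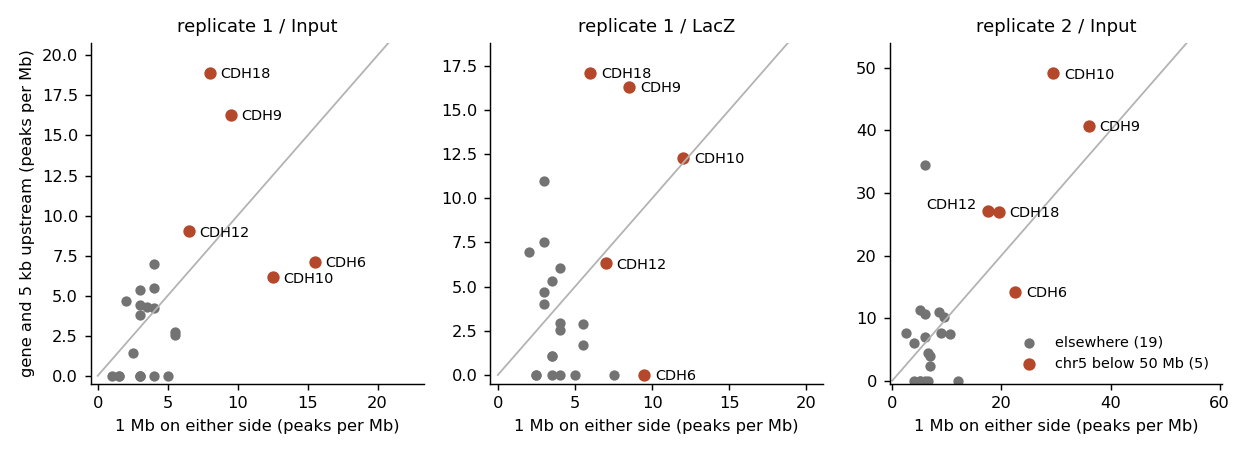
Peaks per Mb in the gene with its 5 kb upstream (y axis) against peaks per Mb in the 1 Mb on either side (x axis) for the 24 members of at least 100 kb outside the protocadherin clusters, with a panel for each of 3 lists and a grey line of equality. CDH18 lies above the line in all 3 panels (18.9 and 8, 17.1 and 6, 27 and 19.5), CDH6 lies below it, and the 19 members elsewhere (grey) scatter around it, the highest grey point being CDH7 at 34.5 in replicate 2 against Input. Replicate 2 against LacZ is not drawn because it held 4 member peaks in all.

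The GC content of these genes was low. Their gene bodies had a median GC content of 34.9% (34 to 38.3%), against 42.1% for the other 150 genes of the stretch and 45.3% for all genes. Among the 49 other members, the 25 with a peak had a median of 39.2% and the 24 without had 50.2%. These groups also differed in length, with medians of 177 kb and 28.7 kb, so GC content and length cannot be told apart here. CDH10, with the lowest GC content of the 5 (34%), had the lowest density of them in replicate 1 against Input (6.14 peaks per Mb, from 1 peak). In replicate 2 against Input it had the highest density of the 5 (49.1 peaks per Mb, from 8 peaks). CDH19 (32.3%) held 0 peaks in all 4 lists. The part of GC content in the peak counts was not tested apart from the length classes split by GC, under which the ratios to like length were 1.41, 0.566, 1.11 and 2.04 over all 107 members.

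The highest-scoring member peak of replicate 2 against Input (146.01) was an intronic CDH18 peak, which was also called against LacZ with a score of 63.82. The only site of CDH12 found in both replicates is given here as sequence, because it is 1 of 2 such sites among all members. It is shown by 300 bases (chr5:22022703-22023002, GRCh38, plus strand) of the region where chr5:22022700-22023005 of replicate 1 (score 58.65) and chr5:22022688-22023045 of replicate 2 (score 52.54), both against Input, overlapped. It is AT-rich (30.3% GC) and is printed with no capitals.
CDH12 overlap: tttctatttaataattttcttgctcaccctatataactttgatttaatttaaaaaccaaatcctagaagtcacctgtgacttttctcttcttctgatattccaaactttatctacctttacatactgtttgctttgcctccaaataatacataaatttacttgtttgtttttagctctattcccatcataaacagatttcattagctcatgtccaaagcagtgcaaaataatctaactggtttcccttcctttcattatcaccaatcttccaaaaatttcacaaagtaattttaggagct

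The clustered protocadherins, which give neurons distinct surface identities, held a peak in 22, 1, 22 and 0 of 53 genes, beside 12.4, 16.9, 19.3 and 0.787 for genes of like length. These counts are of genes that overlap, and few peaks lay behind them. The 22 PCDHG genes share a locus of 187 kb (chr5:141325514-141512977). A single replicate 1 peak against Input (chr5:141481779-141482128, score 51.72) was counted for 21 of them, 20 by their body and PCDHGC4 by the 5 kb upstream. In replicate 2 there were 2 peaks against Input, at chr5:141437883-141438276 (score 51) and chr5:141504074-141504531 (score 87.56), which together touched all 22. The replicate 1 peak lay 21946 bp from the nearest replicate 2 peak. Against LacZ the PCDHG locus held 0 peaks in either replicate. None of the 16 PCDHB genes held a peak in any list. With overlapping members merged, the 107 genes formed 63 loci, of which 19, 21, 26 and 4 held a peak. With the longest gene of each locus alone, these counts stood beside 16.8, 21.7, 24.6 and 1.3 for genes of like length. Without the clustered genes the counts were 17, 20, 25 and 4, beside 15.8, 20.2, 23.1 and 1.23. The ratio for replicate 1 against Input was thus 1.13 with 1 gene per locus and 1.07 without the clusters, where it was 1.38 over all members.

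PCDHA1 was the only member with a peak over its start. The same replicate 1 peak (chr5:140785957-140786411) was called against Input with a score of 66.61 and against LacZ with a score of 50.54, and replicate 2 held 0 peaks in the gene. Promoter windows of RefSeq (GRCh38.p14, 250 bases before to 50 after each start) were matched for 82 of the 107 members, and that of PCDHA1 was the only one that a peak touched. Peaks rarely lay at starts anywhere: over 20584 such windows of autosomal protein-coding genes, 8, 89, 29 and 1 held a peak (0.0389%, 0.432%, 0.141% and 0.00486%). The part of the peak upstream of the annotated gene (chr5:140785957-140786135, GRCh38, plus strand) is printed because it is the only promoter sequence under a member peak. It overlaps an annotated exon of another gene, ENSG00000279726, and has no capitals.
PCDHA1 upstream: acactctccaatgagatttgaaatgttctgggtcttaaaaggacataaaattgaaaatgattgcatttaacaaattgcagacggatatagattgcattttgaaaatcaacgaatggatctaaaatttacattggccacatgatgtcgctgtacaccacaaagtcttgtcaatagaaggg

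**Figure D4:**
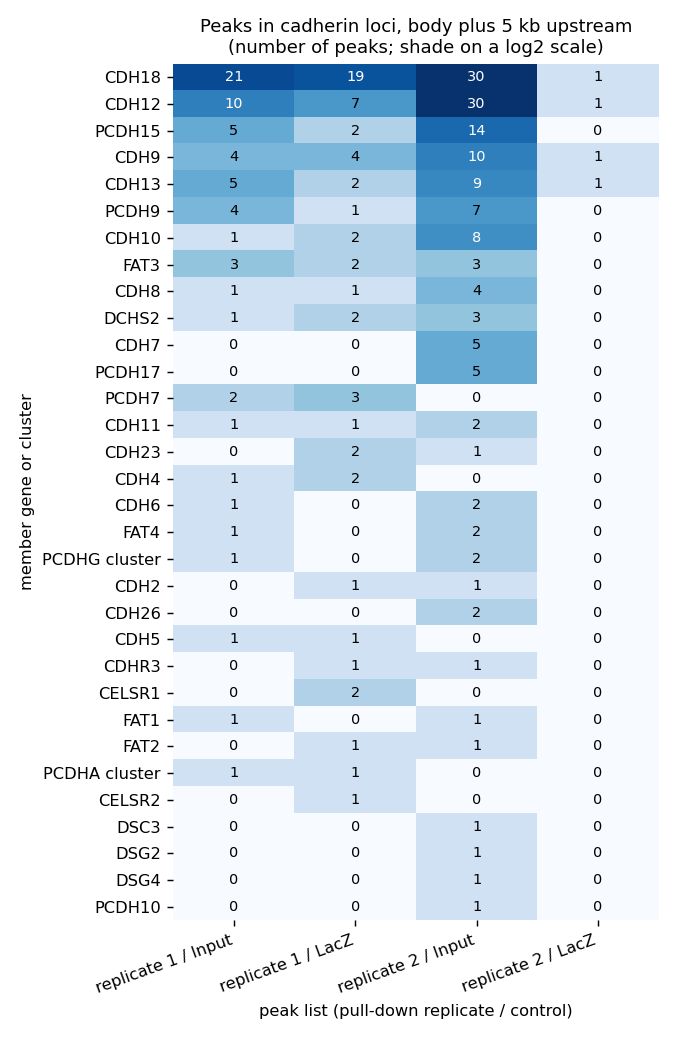
Number of peaks in the body or 5 kb upstream (digits in the cells, shade on a log2 scale) for every member gene or cluster with a peak (rows), in each of the 4 lists (columns). CDH18 and CDH12 hold up to 30 peaks in a list, most other rows hold 0 to 5, and the list of replicate 2 against LacZ holds 1 peak in each of 4 genes.

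Peaks against LacZ in both replicates fell in 4 members (CDH9, CDH12, CDH13 and CDH18), where 0.586% of all genes had them and genes of like length would have given 1.26. Of these 4, 3 are on chromosome 5 below 50 Mb and CDH13 is on chromosome 16. The peaks of the replicates against LacZ overlapped in 0 members. CDH12, CDH13 and CDH18 (1103, 1174 and 1105 kb) fell in the top length class, whose other genes had a median of 406 kb. Peaks against Input in both replicates fell in 35 members, where 8.26% of all genes had them and genes of like length would have given 19.3. Those 35 were 21 PCDHG genes, the 5 genes on chromosome 5 below 50 Mb and 9 others, beside 9.54 for the 49 others at like length. The 9 were CDH8, CDH11, CDH13, DCHS2, FAT1, FAT3, FAT4, PCDH9 and PCDH15.

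CDH13 (ENSG00000140945, chr16:82626965-83800640, plus strand, 1174 kb) encodes T-cadherin, which is held in the membrane by a lipid anchor and lacks the tail that binds catenins. It held 5, 2, 9 and 1 peaks and was the only member outside chromosome 5 with a peak in all 4 lists. Per Mb these were 4.24, 1.7, 7.64 and 0.848, against medians of 3.53, 3.4, 6.62 and 0 for the 309 genes of at least 500 kb. It ranked 126, 244, 118 and 20 among them, above the median in both lists against Input and below it in replicate 1 against LacZ. For the last list its rank rests on 1 peak, in a list with a peak in 32 of the 309 genes. A dinucleotide repeat of at least 10 units lay under its highest peak (chr16:82946927-82947391, scores 68.28 against Input and 102.6 against LacZ in replicate 1). Its replicate 2 peak against LacZ (chr16:82659687-82659878, score 53.52) was 15723 bp from the nearest replicate 1 peak.

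CDH13 also held the other site at which peaks of the replicates overlapped. The replicate 1 peak against LacZ at chr16:83127311-83127872 (score 54.64) and the replicate 2 peak against Input at chr16:83127749-83128255 (score 54.11) shared 124 bases of an intron. The shared bases (chr16:83127749-83127872, GRCh38, plus strand) are printed whole, with no capitals, as the only sequence called in both replicates outside chromosome 5. They have a GC content of 30.6%, and their longest run of T or A is 5 bases.
CDH13 overlap: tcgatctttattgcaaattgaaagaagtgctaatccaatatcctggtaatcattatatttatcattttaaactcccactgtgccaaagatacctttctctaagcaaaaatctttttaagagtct

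In all, the member peaks of the 4 lists formed 235 distinct sites, and 2 of them, those in CDH12 and CDH13, were found in both replicates. The CDH12 pair was called against Input alone, and the CDH13 pair against LacZ in replicate 1 and Input in replicate 2. In replicate 1, 33 of 65 member peaks against Input were also called against LacZ. In replicate 2, all 4 peaks against LacZ were also called against Input, while 4 of 147 peaks against Input were also called against LacZ. Neither the overlap of replicates nor that of controls was counted over all autosomal peaks. These values are therefore not shown to be particular to the members.

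CDH4 (chr20:61252261-61940617, 688 kb), R-cadherin, a type I cadherin of retina and muscle, held 1, 2, 0 and 0 peaks. An intronic peak had the highest score of all member peaks in both replicate 1 lists, 110.35 against Input and 141.44 against LacZ. It ranked 137 of 9251 and 22 of 10234 peaks in those lists. No replicate 2 peak fell in the gene.

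Across the members 8 entries of the lists had a score of at least 100, at 7 sites. They lay in CDH4 (called against both controls in replicate 1), CDH13, CDH12 (chr5:22586578-22587184, score 112.18), CDH26 (chr20:60018466-60019009, score 138.7), CDH9 (score 110.65) and CDH18 (scores 146.01 and 101.64).

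The letters GGCTGGAGT on either strand, part of the consensus of the abundant primate repeat Alu, and runs of at least 12 T or A were chosen for counting after strong member peaks had been read. Over all member peaks, both were less frequent than in the whole list in 3 of the 4 lists. Among the entries with a score of at least 100, both lay in those of CDH4 and CDH12 and in the CDH18 peak of score 146.01. CDH26 held a run alone, and CDH13, CDH9 and the CDH18 peak of score 101.64 held neither. Because both were chosen after such peaks had been read, their presence there is no separate result. GGCTGGAGT was in 6.15%, 10.3%, 8.16% and 25% of member peaks, beside 10.2%, 14.6%, 12.4% and 23.3% of all autosomal peaks and 8.17% of 400-base windows of the autosomes. Runs of at least 12 T or A were in 9.23%, 20.7%, 9.52% and 50% of member peaks, beside 21.9%, 26.1%, 22.8% and 45.2% of all peaks and 8.65% of windows. The 25% and 50% are 1 and 2 of 4 peaks. The motif CCCC on either strand was in 50.8%, 63.8%, 61.9% and 25% of member peaks and in 64.2%, 72%, 68% and 74% of all peaks. Median GC content was 35.7%, 38.4%, 36.2% and 39.2% in member peaks and 38%, 41.3%, 38.8% and 39.9% in all peaks.

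The capture oligonucleotides, 9 for CRLM1 and 21 for LacZ, were searched for in the peaks. A run of at least 12 bases identical to a CRLM1 oligonucleotide, on either strand, was in 5, 2, 5 and 0 member peaks (7.69%, 3.45%, 3.4% and 0%), beside 2.38%, 2.54%, 2.62% and 3.32% of all autosomal peaks. The longest such run in a member peak was 13 bases of the 59 in an oligonucleotide, so no member peak held a full target of the capture. Over all autosomal peaks it reached 30, the longest run searched for, so longer runs there cannot be told from these values. Runs of 12 bases against LacZ oligonucleotides were in 2, 1, 2 and 0 member peaks. Member peaks had median scores of 55.4, 57.4, 57.7 and 55, beside list medians of 56.1, 58, 57.7 and 56. Nearly all were intronic (62 of 65, 55 of 58, 138 of 147 and 4 of 4). The intronic share of member sequence and of all peaks was not counted, so this is not shown to be particular to the members.

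Type I cadherins of epithelia held no peak. CDH1 (E-cadherin, the adherens junction cadherin of colon epithelium, chr16:68737292-68835537, 98.2 kb) and its neighbour CDH3 (P-cadherin, chr16:68636189-68727468, 91.3 kb) held 0 peaks in all 4 lists. CDH2 (N-cadherin, chr18:27932879-28177946, 245 kb), which mesenchymal and neural cells use, held 1 peak in replicate 1 against LacZ (score 50.41) and 1 in replicate 2 against Input (score 54.91), 53970 bp apart. In the length class of CDH1 and CDH3, 27.2%, 39.5%, 45.1% and 1.79% of other genes held a peak. In all, 2 of the 5 type I genes held a peak in any list. By list they numbered 1, 2, 1 and 0, beside 1.8, 2.26, 2.59 and 0.136 for genes of like length. CDH17 (LI-cadherin of intestinal epithelium, 90.1 kb) held 0 peaks in any list.

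The desmosomal cadherins, clustered on chromosome 18, had a peak in 0, 0, 3 and 0 of 7 genes, beside 0.671, 1.3, 1.48 and 0.0558 for genes of like length. The 3 were DSG2, the desmoglein of simple epithelia (score 70.7), DSC3 and DSG4, each with 1 peak in replicate 2 against Input and 0 in the other lists. DSC2, its partner in simple epithelia, held 0 peaks in all 4 lists.

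Of the 13 type II cadherins, 8, 7, 8 and 3 held a peak, beside 5.26, 6.35, 7.42 and 0.392 for genes of like length, and 5, 4, 5 and 3 of these were the chromosome 5 genes. The others on chromosome 16 were CDH8, a neuronal cadherin (390 kb; 1, 1, 4 and 0 peaks), CDH11, the cadherin of osteoblasts and mesenchyme (182 kb; 1, 1, 2 and 0), and CDH5, VE-cadherin of endothelium (38.1 kb; 1, 1, 0 and 0). The CDH5 peak was the same region in both replicate 1 lists, with scores of 56.57 against Input and 88.44 against LacZ. CDH20 (222 kb), CDH22 (135 kb) and CDH19 (103 kb) were long members with 0 peaks in all 4 lists.

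Among the non-clustered protocadherins 3, 3, 4 and 0 of 10 held a peak, beside 2.78, 3.46, 3.82 and 0.241 for genes of like length. PCDH15 (chr10:53802771-55627942, 1825 kb), which forms the tip link of hair cells with CDH23, is the longest member and held 5, 2, 14 and 0 peaks. That is 2.73, 1.09, 7.65 and 0 peaks per Mb, ranks of 191, 267 and 117 among the 309 long genes in the first 3 lists. CDH23 (419 kb) held 0, 2, 1 and 0. PCDH9 (928 kb), of developing neurons, held 4, 1, 7 and 0 peaks at 12 sites, each in a single list. PCDH7 (426 kb) held 2, 3, 0 and 0, whereas PCDH17 (97.6 kb) held 0, 0, 5 and 0, so each was called in 1 replicate alone. PCDH10 (59.3 kb) held 1 peak, in replicate 2 against Input.

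Of the giant cadherins, 4, 3, 5 and 0 of 6 held a peak, beside 2.29, 2.8, 3.28 and 0.167 for genes of like length. FAT3 (672 kb), which shapes neuron dendrites, held 3, 2, 3 and 0, DCHS2 (260 kb), a dachsous protein, held 1, 2, 3 and 0, and FAT4 (178 kb), the dachsous receptor, held 1, 0, 2 and 0. FAT1 (139 kb), expressed in many epithelia, held 1 peak against Input in each replicate (scores 51.68 and 54.6), 37164 bp apart. The flamingo genes CELSR1 and CELSR2, which act in planar polarity, held 2 and 1 peaks, all in replicate 1 against LacZ. At like length the 3 flamingo genes would have given 0.583, 0.82, 0.918 and 0.0368 genes with a peak. FAT2 and CDHR3, the only one of the 5 cadherin-related genes with a peak, each held 1 peak in replicate 1 against LacZ and 1 in replicate 2 against Input. For the cadherin-related genes the like-length values were 0.522, 0.9, 0.985 and 0.0316.

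Junction proteins that work beside cadherins were taken as a list of 19 genes: catenins, plakophilins, desmoplakin, vinculin, afadin and the nectins, which are adhesion receptors themselves. Of these 7, 9, 6 and 1 held a peak, beside 5.89, 7.48, 8.59 and 0.465 for genes of like length. Peaks against Input in both replicates fell in 6 of them, beside 4.3 for genes of like length and 8.26% of all genes: CTNNA2, CTNNA3, CTNND2, PKP2, PKP4 and AFDN. CTNNA2, the alpha-catenin of neurons (1464 kb), held 5, 5, 10 and 1 peaks and was the only one with peaks against LacZ in both replicates. CTNNA3, alpha-T-catenin of heart and testis (1851 kb), held 7, 10, 11 and 0. CTNND2, the neuronal delta-catenin (933 kb), is also on chromosome 5 below 50 Mb and held 15, 12, 21 and 0 peaks, which placed it at ranks 2, 3 and 3 of the 309 long genes in the first 3 lists. CTNNB1 (beta-catenin) and DSP (desmoplakin) held 0 peaks in all 4 lists.

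Of the 107 members, 54 held no peak in any list, beside 47.1 for genes of like length, and 30 of the 54 were clustered protocadherins. Peaks in at least 3 lists fell in 11 members, where 6.64% of all genes had them and genes of like length would have given 15.7. There were 4 on chromosome 5 below 50 Mb and 7 elsewhere (CDH8, CDH11, CDH13, DCHS2, FAT3, PCDH9 and PCDH15), beside 1.77 and, for the 49 members elsewhere outside the clusters, 7.98 at like length. The lists give the place of pull-down DNA alone, and expression of these genes was not analysed here.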

How the data were processed

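ChIRP-seq libraries of HCT116 cells were grouped by the sample labels. As the study's methods state, cutadapt trimmed the reads and Bowtie2 aligned them to GRCh38. The authors called peaks in each replicate against the control of the same number. Each deposited list gives a start, an end and a score for each peak. Neither the score's scale nor the caller release is settled, since the methods name MACS2 with a q-value threshold while the columns and the score floor match an older MACS. The study dropped peaks overlapping LacZ peaks, a step not applied here.

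Coordinates were made 1-based. Gene bodies came from GENCODE release 44. A gene held a peak when at least 1 bp of it fell in the body or the 5 kb upstream. Like-length values are sums, over members, of the share of non-member genes of the same class (20 classes of equal size) with a peak. The counting was tested on simulated data. No statistical test was made, because each list is a single comparison of libraries and genes are not replicates. The members and gene lists were chosen with earlier results of these data known. Genes were named when they had a peak in both replicates against a control, in at least 3 lists, in replicate 2 against LacZ or with a score of at least 100, when they were among the 10 with the most sites, or when they lay on chromosome 5 below 50 Mb. CDH1, CDH2, CDH3, CDH17, DSG2, DSC2, FAT1 and the clustered protocadherins were named in any case, and a few others for their family after their values were seen. The sequences of the highest-scoring member peaks are not reported here. Peaks off the autosomes (165, 95, 184 and 4) were left out. Python 3.11.15, pandas 2.3.3, numpy 2.4.6, scipy 1.17.1 and matplotlib 3.10.9 were used.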

Additional observations from a re-analysis of the deposited data

How the results depend on the processing

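No paired analysis was possible because the lists hold no measure per sample, so the fit with a replicate block was not run. Of 130 recomputed values, 101 stayed within 1.5 times the reported count or within the counting interval of the reported value. The counting interval (95%, binomial) takes genes or peaks as independent, which overlapping genes are not. It served as a yardstick and measures no replicate error. That interval is wide for replicate 2 against LacZ, where the ratio to like length ran from 0.556 (without chromosome 5 below 50 Mb) to 3.26 (without clustered protocadherins) and density from 0.0954 to 0.315 peaks per Mb. The order below is replicate 1 Input, replicate 1 LacZ, replicate 2 Input, replicate 2 LacZ.

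With peaks at or above the median score of their list, genes with a peak numbered 14, 13 and 2 in the first, second and last list, the ratio to like length against Input was 0.79 (replicate 1) and 1.41 (replicate 2), density was 2.34, 2.11 and 5.58 peaks per Mb in the first 3 lists (4.91, 4.38 and 11.1 with all peaks), and genes found in both replicates fell to 9 against Input and 2 against LacZ. When the peaks themselves had to overlap, these were 1 and 0. Keeping only the upper-scoring peaks of a list lowers its counts and density by construction. With 1 replicate left out, the genes with a peak in the other numbered 39 to 47 against Input and 4 to 21 against LacZ. This alternative was added after the data were seen and repeats the single-list counts given above. Merging overlapping members left 19 and 26 loci against Input. Without clustered protocadherins, 17 and 25 genes remained against Input and the ratio in replicate 1 against LacZ was 0.992 (0.968 with the longest gene of each locus, also added). With peaks called against both controls, the ratio against Input was 0.717 and 2.12. Without chromosome 5 below 50 Mb, or without genes over 500 kb, 1 gene was left in replicate 2 against LacZ. Density without that stretch was 2.67, 2.48 and 6.39 peaks per Mb in the first 3 lists, without genes over 500 kb it was 2.8 in the first, and without CDH18 alone, added later, it was 3.62 and 3.21 in the replicate 1 lists. The cause of these moves was not tested. The longest members were compared with shorter genes: in the top length class they had a median of 813 kb against 406 kb, though with the 200 or 50 genes nearest in length the ratios were 1.33 and 1.33, 0.554 and 0.558, 1.1 and 1.08, and 1.81 and 1.49. Depth is unknown, so a gene with no peak may hold signal under the threshold of the caller. The share of masked repeats was not computed, since the genome used carries no masking.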
